A study of Homo sapiens with 6 samples.

Results

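The genes described here are 40 genes of mitosis and the G2/M transition, a list that runs from the cyclins that start mitosis to the proteins that split the cell at its end. They were taken by name from a fixed list, and a gene counted as measured where a probe set of the array was paired with its symbol and no other. By that rule 39 of the 40 were measured, among 18417 named genes in all. CENPA, the centromeric histone, was not analysed here because its probe set is paired with more than 1 symbol. The samples were cells of HCT116, a colorectal carcinoma line of human origin and long in culture, taken 48 h after transient transfection. The control group received a double-stranded RNA oligo against GFP, a jellyfish protein, and the siChe-1 group one against Che-1, the product of AATF, with 3 whole-transcript Affymetrix arrays in each. All groups therefore share the cell line, the transfection and the harvest time, and no untransfected cells enter the comparison. Nothing in the labels ties an array to a culture of its own, so the spread behind each p-value may be technical.

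Most of these genes are transcribed in a wave that builds through S phase and peaks in G2 and mitosis. Cyclin B binds CDK1, CDC25 phosphatases remove the inhibitory phosphates from CDK1, and the active kinase drives chromosome condensation and spindle assembly. The spindle checkpoint then holds back the anaphase-promoting complex (APC/C) until every kinetochore is attached to microtubules, after which kinesins and their partners build the midzone and cytokinesis follows. The promoters of this wave are known for a CHR element, read by the MuvB complexes that repress these genes in resting cells and activate them in G2, and for CCAAT boxes bound by NF-Y. Because each array holds RNA from many cells, a changed share of cells in G2 and mitosis and a changed amount of these transcripts per cell cannot be told apart.

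RefSeq promoter windows of GRCh38.p14 were at hand for 33 of the 39 measured members, 42 windows in all, each from 250 bases before to 50 bases after an annotated start. The stretches below are shown for the mitotic cyclins CCNB1 and CCNB2, as examples of this promoter type, and for NEK2, CENPF, KIF20A and NUF2, which with PIMREG were the members called when siChe-1 replicate 1 was left out, as described further on. No window was at hand for PIMREG, TPX2, BIRC5, UBE2C, AURKA and TTK. Each is the 120 bases directly before the start, on the gene's own strand. Capitals mark CCAAT, which reads ATTGG where it lies on the other strand. They also mark the letters of CHR elements, TTTGAA on either strand and its variant TTTAAA, which reads alike on both. They lie on GRCh38.p14 at chr5:69167030-69167149 (CCNB1, plus strand), chr15:59105026-59105145 (CCNB2, plus strand), chr1:211675622-211675741 (NEK2, minus strand), chr1:214603075-214603194 (CENPF, plus strand), chr5:138178992-138179111 (KIF20A, plus strand) and chr1:163321834-163321953 (NUF2, plus strand).
CCNB1: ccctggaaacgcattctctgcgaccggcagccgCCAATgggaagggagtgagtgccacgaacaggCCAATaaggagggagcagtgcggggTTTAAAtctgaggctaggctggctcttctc
CCNB2: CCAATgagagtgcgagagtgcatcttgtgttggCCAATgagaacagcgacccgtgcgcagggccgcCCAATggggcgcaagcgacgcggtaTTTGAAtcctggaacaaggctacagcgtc
NEK2: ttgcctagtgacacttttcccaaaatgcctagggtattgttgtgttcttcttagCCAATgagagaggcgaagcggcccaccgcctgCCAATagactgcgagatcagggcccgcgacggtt
CENPF: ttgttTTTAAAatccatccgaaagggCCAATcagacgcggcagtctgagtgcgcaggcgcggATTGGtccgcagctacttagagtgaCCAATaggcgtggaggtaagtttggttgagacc
KIF20A: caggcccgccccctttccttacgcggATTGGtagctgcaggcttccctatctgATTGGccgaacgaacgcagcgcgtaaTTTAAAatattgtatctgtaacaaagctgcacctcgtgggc
NUF2: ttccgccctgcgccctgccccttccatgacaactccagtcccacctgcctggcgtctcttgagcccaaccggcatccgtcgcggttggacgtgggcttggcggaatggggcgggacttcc

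CCNB2 carries CCAAT starting 120, 87 and 54 bases before the start and TTTGAA 29 bases before it, and CCNB1 carries CCAAT at 87 and 55 bases and TTTAAA at 30 bases. KIF20A has the same order of elements, with CCAAT read on the other strand at 94 and 67 bases and TTTAAA at 41 bases. CENPF has another order, with TTTAAA at 115 bases, ahead of CCAAT at 94, 58 (on the other strand) and 33 bases. After its start, CCAAT on the other strand begins at base 13 and TTTGAA at base 41. NEK2 has CCAAT at 66 and 34 bases, and neither TTTGAA nor TTTAAA was found in its window. NUF2 has none of these letters in the stretch shown, and TTTGAA starts at base 17 after its start. Over all 42 member windows, TTTGAA or TTTAAA was present in 31 (73.8%), against 19.9% of the 20109 windows of all measured genes, and CCAAT in 29 (69.0%) against 34.6%. Both elements were present in 22 member windows (52.4%) against 7.82% of all windows. A match is a description of the letters and not a bound site, some genes have several start sites whose windows overlap, and the members were not chosen by their promoters.

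AATF, the gene targeted, opposed its labels. It read 7.55, 7.75 and 7.55 in the control arrays and 8.53, 8.81 and 8.87 in the siChe-1 arrays (log2 RMA intensity). It was therefore higher in the arrays labelled as depleted of it, by 1.12 ± 0.13 on the log2 scale (moderated SE, limma adjusted p = 0.00122). An exact permutation over its 6 arrays, two-sided, returned p = 0.1, which is the floor for 3 against 3. Groups are named here by their labels, and every direction would turn if the labels were exchanged. One array stood apart: siChe-1 replicate 1 correlated with siChe-1 replicates 2 and 3 at 0.9844 and 0.9864 over all named genes, while those replicates correlated with each other at 0.9959 and the control arrays among themselves at 0.9940 to 0.9946. Differences of the members are therefore given with and without it. All 8 epithelial markers were measured, and their median lay between 9.64 and 9.72 on every array, but single markers went both ways: KRT19 was called lower (11.24 against 10.65 in the group means) and ELF3 higher (6.73 against 7.40). KRT8 and KRT18 lay lower and CDH1 higher in every siChe-1 array without passing the test with all arrays. The median of 6 fibroblast markers lay between 3.85 and 4.17 and that of 6 leukocyte markers between 3.45 and 3.80, with none of the 12 called. COL1A1 (7.02 and 7.41 in the group means) and COL3A1 (3.99 and 4.24) still lay higher in every siChe-1 array. The other fibroblast means were 4.29 and 4.28 for COL1A2, 3.86 and 3.76 for PDGFRB, 2.44 and 2.58 for DCN and 2.23 and 2.34 for LUM. Among the leukocyte markers the group means were 2.41 and 2.46 for PTPRC, 3.53 and 3.90 for CD52 and 5.84 and 6.07 for TYROBP. They were 3.45 and 3.51 for CD3E, 3.81 and 3.96 for CD79A and 3.32 and 3.31 for LAPTM5. The part of these markers in the results was not tested.

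With all 6 arrays, no mitosis or G2/M gene passed the test. Of the 39 measured members, none was called higher or lower at a limma adjusted p under 0.05 (Benjamini-Hochberg over all 18417 genes), where 3.72% of all genes were called. All 39 members lay above the median level of all genes, at a median percentile of 90.1. With the dimmest 40% of genes left out, again no member was called, beside 751 of 11050 genes. In the fit of all genes at an unadjusted p under 0.05 there were 6 higher members and none lower, beside 7.88% and 9.77% of all genes. Differences ran from -0.29 for HMMR to 0.47 for NUF2, and the median was 0.027 on the log2 scale, beside 0.005 over all genes. The 95% intervals of all 39 differences lay between -0.69 and 0.83, so every one of them stayed inside a change of 2-fold in either direction. The siChe-1 arrays all lay above the control arrays in 6 members (NEK2, BIRC5, CCNB2, NUF2, KIF20A and PIMREG) and all below in 1 (UBE2C), where 10.6% and 13.3% of all genes, together 24.0%, did so. The signs were split, with 21 above 0 and 18 below. That split depended on scaling: a repeated quantile normalization gave 28 above 0 (median 0.11) and centring on array medians gave 19 (median -0.012). Over all genes the medians were then 0.017 and -0.034, with 9865 and 8048 of 18417 above 0. With array weights estimated by limma, 7 members were called higher with all 6 arrays, beside 1348 of all 18417 genes. No member was called lower, beside 1517 of all genes. The 7 were CCNB1, CDC25C, CENPF, KIF20A, NEK2, NUF2 and PIMREG.

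Without siChe-1 replicate 1, 5 of the 39 members were called higher and none lower by limma, beside 4.01% and 4.48% of all genes. They were NUF2 and CENPF of the kinetochore, the kinase NEK2, the midzone kinesin KIF20A, and PIMREG, a mitotic regulator that binds PICALM. Among brighter genes only, with the dimmest 40% left out, 6 members were called higher, beside 1021 of 11050 genes, and none lower, beside 1114. In the fit of all genes at an unadjusted p under 0.05 there were 9 higher members and none lower, beside 11.6% and 11.4% of all genes. The median difference was 0.169, beside -0.005 over all genes. Of the 39 members, 30 were above 0 (31 after a repeated quantile normalization and 28 after centring on array medians). Of all 18417 genes, 9015 were above 0 (9544 and 7726 after the same 2 changes). In 22 members both remaining siChe-1 arrays lay above all 3 control arrays, where 19.7% of all genes did so, and in 1 member they lay below, where 20.5% did (40.1% for both directions). Only CENPF and NUF2 were called under centring on array medians, and the same pair was called when control replicate 1 or control replicate 3 was dropped too. Leaving out control replicate 2 gave 4 members (CDC25C, CENPF, NEK2 and NUF2), beside 1191 of all genes. Leaving out siChe-1 replicate 2 as well gave a median difference of 0.185, beside -0.01 over all genes, with 33 of 39 members above 0. Leaving out siChe-1 replicate 3 as well gave a median of 0.113, beside -0.003 over all genes, with 28 of 39 above 0. Where 1 siChe-1 array was left, it was assumed to vary like the control arrays.

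**Figure D1:**
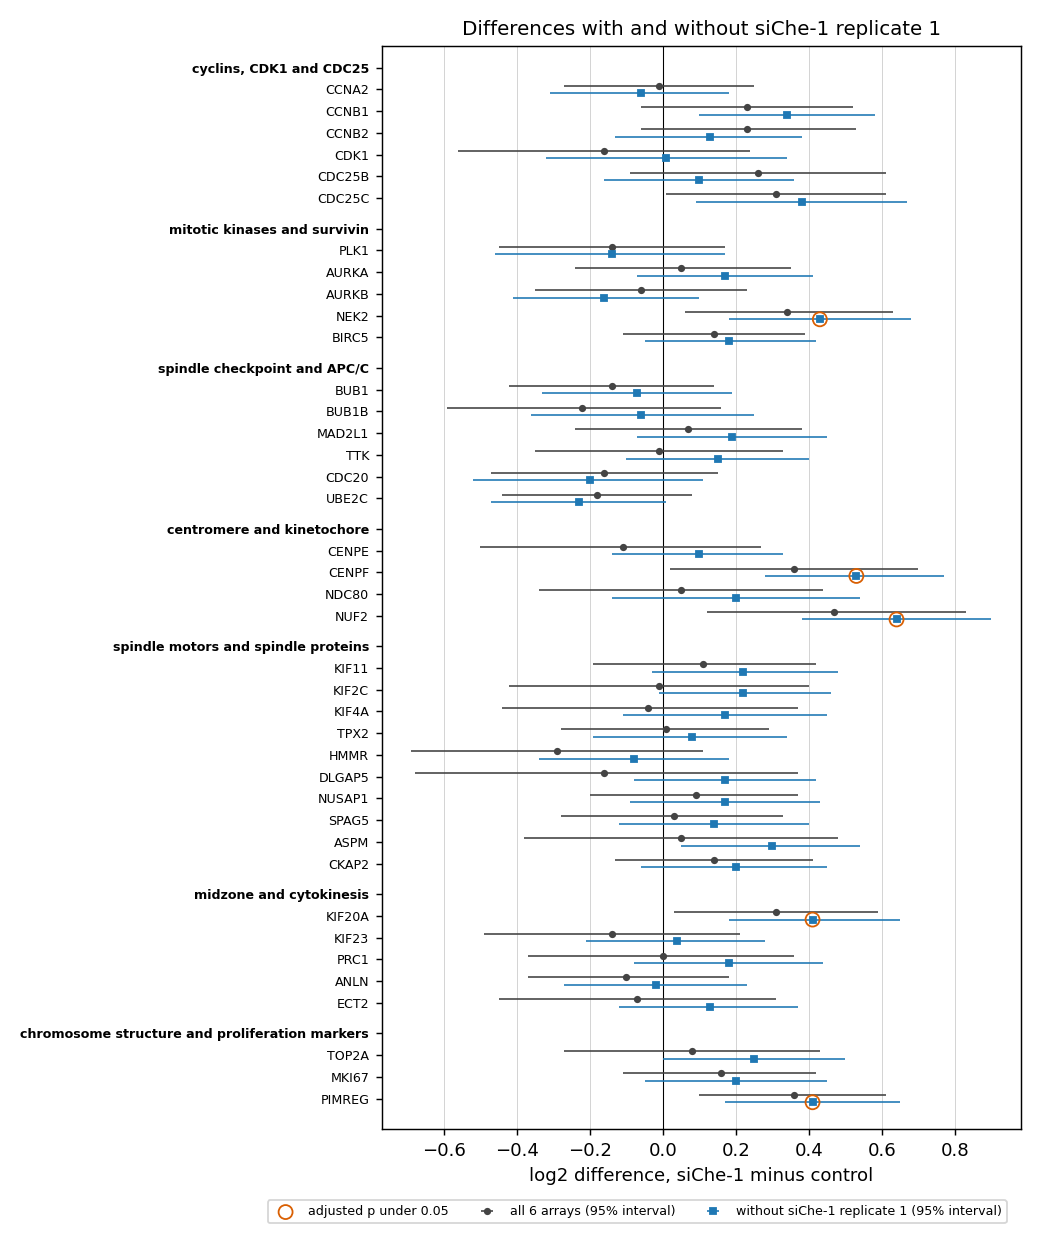
Log2 difference, siChe-1 minus control, of each measured member with its 95% interval, from all 6 arrays (circles) and without siChe-1 replicate 1 (squares), with orange rings for an adjusted p under 0.05. All intervals stay inside -0.69 to 0.90, and the ringed genes are NEK2, CENPF, NUF2, KIF20A and PIMREG, called without replicate 1 and not with all arrays in this fit; under centring on array medians CENPF and NUF2 keep the ring.

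**Figure D2:**
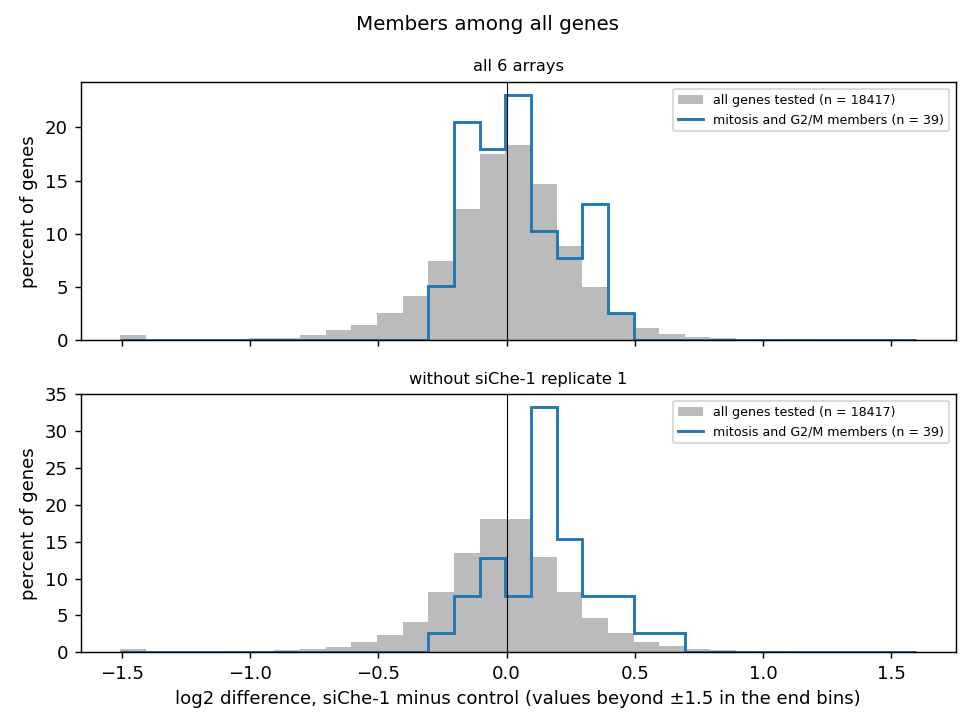
Distribution of the log2 differences, siChe-1 minus control, of the 39 members (blue line) and of all 18417 genes (grey), as percent of genes in bins of the log2 difference. With all 6 arrays the members centre at 0.027, and without siChe-1 replicate 1 they centre at 0.169, with 30 of 39 above 0 (28 after centring on array medians).

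Among the cyclins, CDK1 and the CDC25 phosphatases no gene passed in either limma fit (1 with all arrays and 2 without replicate 1 at an unadjusted p under 0.05), and CCNB1 and CDC25C passed with array weights. CCNB1, the main mitotic cyclin, read 10.56, 10.52 and 10.60 in the control arrays and 10.58, 10.85 and 10.95 in the siChe-1 arrays. Its siChe-1 replicate 1 lay within the control range and the other two above it, and the difference was 0.23 ± 0.13 (limma adjusted p = 0.403), or 0.34 ± 0.11 without replicate 1 (adjusted p = 0.0837). CCNB2 read 8.68, 8.70 and 8.72 against 9.15, 8.72 and 8.93, with replicate 1 the highest of all arrays. Its groups did not overlap, although siChe-1 replicate 2 equalled the highest control array at the precision printed, and its difference was 0.23 ± 0.13 (adjusted p = 0.414), or 0.13 ± 0.11 without replicate 1 (adjusted p = 0.567). CDK1, the kinase that these cyclins activate, read 7.44, 7.63 and 7.23 against 6.93, 7.27 and 7.61. The groups overlapped with replicate 1 lowest and control replicate 2 highest, for a difference of -0.16 ± 0.18 (adjusted p = 0.707) that was 0.01 ± 0.15 without replicate 1. CCNA2, the S and G2 phase cyclin, differed by -0.01 ± 0.12, and by -0.06 ± 0.11 without replicate 1.

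CDC25B, a phosphatase that starts CDK1 activation, read 8.64, 8.52 and 8.70 in the control arrays and 9.20, 8.81 and 8.62 in the siChe-1 arrays. Its siChe-1 values were widely spread, with replicate 1 far above the rest, and the difference of 0.26 ± 0.16 (adjusted p = 0.434) came to 0.10 ± 0.12 without that array. CDC25C, which keeps CDK1 active at mitotic entry, read 6.35, 6.67 and 6.35 against 6.62, 6.87 and 6.80. Here control replicate 2 lay above siChe-1 replicate 1, and the difference was 0.31 ± 0.14 (adjusted p = 0.273) or 0.38 ± 0.13 without replicate 1 (adjusted p = 0.106).

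Of the mitotic kinases and survivin, NEK2 alone passed, and only without siChe-1 replicate 1 or with array weights. NEK2, which separates the centrosomes at mitotic entry, read 7.46, 7.66 and 7.49 in the control arrays and 7.71, 7.96 and 7.97 in the siChe-1 arrays. Every siChe-1 array was above every control array, and the difference was 0.34 ± 0.13 (adjusted p = 0.187) with all arrays and 0.43 ± 0.11, or 1.35-fold, without replicate 1 (limma adjusted p = 0.0437). PLK1, the polo-like kinase of mitotic entry and spindle assembly, read 9.83, 9.76 and 10.20 against 9.81, 9.83 and 9.75. The groups overlapped with control replicate 3 highest, and the difference was -0.14 ± 0.14 in both fits. AURKA, the spindle pole kinase, differed by 0.05 ± 0.13 (0.17 ± 0.11 without replicate 1), and AURKB, the kinase of the chromosomal passenger complex, by -0.06 ± 0.13 (-0.16 ± 0.11). BIRC5, which encodes survivin, the partner of AURKB in that complex, differed by 0.14 ± 0.11 (0.18 ± 0.10 without replicate 1). It has 2 probe sets, and the dimmer one, at 4.92 ± 0.61 in the control arrays and 5.04 ± 0.96 in the siChe-1 arrays (SD, n = 3 each), differed by 0.12 with all arrays and by -0.44 without replicate 1.

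The 6 spindle checkpoint and APC/C genes had no called member in either limma fit, and none at an unadjusted p under 0.05. UBE2C, the ubiquitin-conjugating enzyme of the APC/C, read 8.02, 8.08 and 8.03 in the control arrays and 7.99, 7.87 and 7.75 in the siChe-1 arrays. It was the one member whose siChe-1 arrays all lay below the control arrays, at -0.18 ± 0.12 (adjusted p = 0.491) and -0.23 ± 0.11 without replicate 1 (adjusted p = 0.228). CDC20, the APC/C activator that the checkpoint restrains, read 9.83, 9.61 and 9.99 against 9.74, 9.47 and 9.75, with overlapping groups and a difference of -0.16 ± 0.14, or -0.20 ± 0.14 without replicate 1. The checkpoint kinase BUB1 (-0.14), its relative BUB1B, which encodes BUBR1 (-0.22), and the checkpoint kinase TTK, also called MPS1 (-0.01), were below 0 with all arrays, and MAD2L1, the CDC20 inhibitor, was at 0.07. Leaving out replicate 1 moved them to -0.07 for BUB1, -0.06 for BUB1B, 0.15 for TTK, whose sign turned, and 0.19 for MAD2L1. Their siChe-1 replicate 1 was the lowest of the 6 arrays in all 4 of these checkpoint genes.

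The kinetochore genes held the 2 largest differences seen without replicate 1, those of NUF2 and CENPF, beside 2 members that did not pass in either fit. NUF2, a subunit of the NDC80 complex that grips microtubules, read 8.03, 8.0 and 7.97 in the control arrays and 8.14, 8.5 and 8.78 in the siChe-1 arrays. The groups did not overlap, and the siChe-1 arrays spread over a far wider range than the control arrays. Its difference was 0.47 ± 0.16, or 1.39-fold (95% interval 0.12 to 0.83, adjusted p = 0.144), and 0.64 ± 0.12, or 1.56-fold, without replicate 1 (limma adjusted p = 0.0104). CENPF, a large kinetochore protein that accumulates in G2, read 9.09, 9.23 and 9.08 against 9.16, 9.66 and 9.65. Replicate 1 lay within the control range and the other siChe-1 arrays clearly above it, for 0.36 ± 0.15 (adjusted p = 0.249) with all arrays and 0.53 ± 0.11, or 1.44-fold, without replicate 1 (limma adjusted p = 0.0173). NDC80, the partner of NUF2 in that complex, differed by 0.05 ± 0.18 (0.20 ± 0.15 without replicate 1), and its control and siChe-1 arrays overlapped in both fits. CENPE, the kinetochore kinesin that moves chromosomes to the spindle equator, read 5.72 in siChe-1 replicate 1 and between 6.23 and 6.36 in every other array, so that its difference was -0.11 ± 0.17 with all arrays and 0.10 ± 0.11 without replicate 1.

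Spindle motors and spindle proteins made up the largest role, with 10 members and none called in either limma fit (0 with all arrays and 1 without replicate 1 at an unadjusted p under 0.05). In all 10, siChe-1 replicate 1 lay below both other siChe-1 arrays, and in 7 it was the lowest of the 6 arrays. HMMR, a microtubule-binding spindle protein, read 7.31, 7.38 and 7.25 in the control arrays and 6.60, 7.13 and 7.35 in the siChe-1 arrays. Its difference was -0.29 ± 0.18 with all arrays (adjusted p = 0.456) and -0.08 ± 0.12 without replicate 1. DLGAP5, which stabilises kinetochore fibres and was singled out after its values were seen, read 9.0, 9.06 and 8.90 against 8.18, 9.10 and 9.22, so that replicate 1 was 0.98 below the mean of the other siChe-1 arrays, the widest such gap of any member. Its difference was -0.16 ± 0.24 with all arrays and 0.17 ± 0.11 without replicate 1 (adjusted p = 0.411). The same gap was -0.74 for ASPM, a spindle pole protein, and -0.70 for KIF2C, a kinesin that takes microtubules apart. ASPM differed by 0.05 ± 0.19 with all arrays and 0.30 ± 0.11 without replicate 1, and KIF2C by -0.01 ± 0.18 and 0.22 ± 0.11, turning sign. The remaining members were KIF11, the motor that separates the spindle poles (0.11), KIF4A, a chromosome-bound kinesin (-0.04), TPX2, the activator of Aurora A (0.01), NUSAP1, a microtubule-bundling protein (0.09), the spindle protein SPAG5 (0.03) and the cytoskeleton-associated protein CKAP2 (0.14), all as log2 differences with all arrays. Without replicate 1 they stood at 0.22 for KIF11, 0.17 for KIF4A, whose sign turned, 0.08 for TPX2, 0.17 for NUSAP1, 0.14 for SPAG5 and 0.20 for CKAP2. KIF4A has a near-identical copy, KIF4B, so its signal is uncertain.

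Among the midzone and cytokinesis genes, KIF20A was the 1 of 5 that passed, and only without siChe-1 replicate 1 or with array weights. KIF20A, a kinesin of the central spindle, read 8.42, 8.46 and 8.48 in the control arrays and 8.56, 8.89 and 8.85 in the siChe-1 arrays. Its groups did not overlap, and the difference was 0.31 ± 0.13 (adjusted p = 0.230) with all arrays and 0.41 ± 0.10, or 1.33-fold, without replicate 1 (limma adjusted p = 0.0383). PRC1, the microtubule crosslinker of the midzone, read 9.60, 9.85 and 9.69 against 9.35, 9.84 and 9.94. Its values overlapped with replicate 1 lowest, and the difference, which rounded to 0 with all arrays, was 0.18 ± 0.12 without replicate 1 (adjusted p = 0.417). With all arrays KIF23 (-0.14), the kinesin of centralspindlin, ANLN (-0.10), which scaffolds the contractile ring, and ECT2 (-0.07), the exchange factor that activates RhoA there, were below 0. Without replicate 1, KIF23 (0.04) and ECT2 (0.13) turned sign and ANLN stood at -0.02. Replicate 1 was the lowest of the 6 arrays for PRC1, KIF23, ANLN and ECT2.

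PIMREG read 7.04, 6.95 and 7.0 in the control arrays and 7.25, 7.36 and 7.45 in the siChe-1 arrays. It was the member with the smallest adjusted p with all arrays, at 0.36 ± 0.12 (adjusted p = 0.127), and its 3 siChe-1 arrays lay together above the control arrays; without replicate 1 the difference was 0.41 ± 0.11, or 1.33-fold (limma adjusted p = 0.0434). MKI67, which encodes the proliferation marker Ki-67, read 9.65, 9.56 and 9.45 against 9.63, 9.81 and 9.70, with overlapping groups and a difference of 0.16 ± 0.12 (adjusted p = 0.546), or 0.20 ± 0.11 without replicate 1. TOP2A, the topoisomerase that untangles sister chromatids, differed by 0.08 ± 0.16 with all arrays and 0.25 ± 0.11 without replicate 1 (adjusted p = 0.210).

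**Figure D3:**
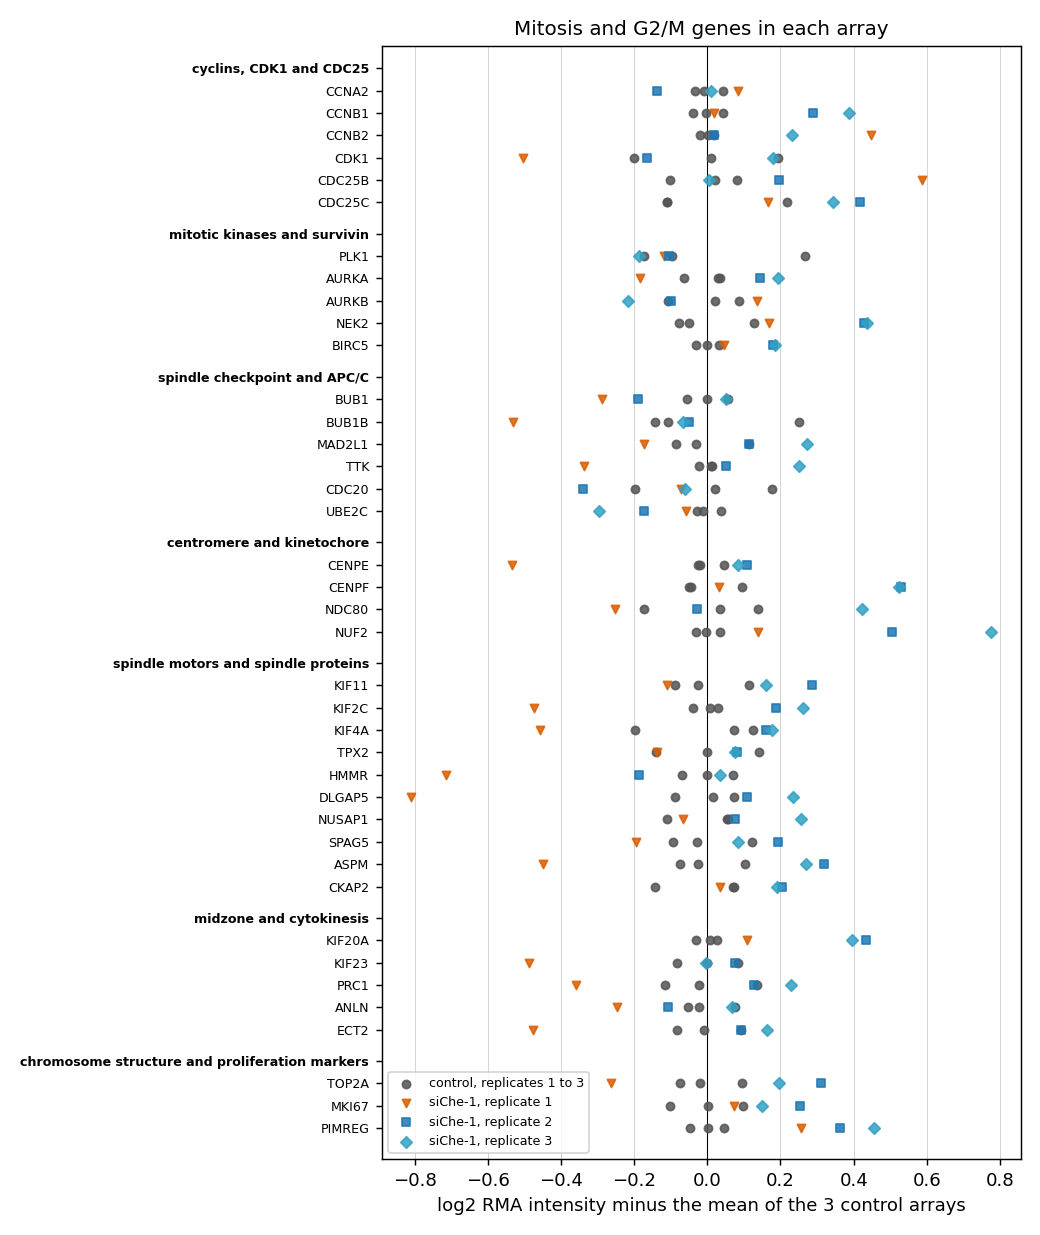
Log2 RMA intensity of each measured member in each of the 6 arrays, minus that gene's mean over the 3 control arrays, grouped by role. Control arrays (grey circles) cluster near 0, siChe-1 replicate 1 (orange triangles) reaches -0.81 at DLGAP5, and siChe-1 replicate 3 reaches 0.78 at NUF2.

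Across roles, siChe-1 replicate 1 lay farthest below the other siChe-1 arrays in the spindle, midzone and kinetochore groups. Taken as the median over members of an array's deviation from the control mean, siChe-1 replicates 1, 2 and 3 stood at -0.14, 0.11 and 0.18 over all 39 members, while the control arrays stood between -0.03 and 0.01. For the spindle proteins the 3 medians were -0.32, 0.18 and 0.18, and for the midzone and cytokinesis genes -0.36, 0.09 and 0.16. For the cyclins, CDK1 and CDC25 genes they were 0.13, 0.11 and 0.21, all on the same side. Replicate 1 was below both other siChe-1 arrays in 32 of 39 members (82.1%), beside 38.7% of all genes. It was the lowest of the 6 arrays in 20 members (51.3%), beside 26.6% of all genes. Other mitosis genes, described below, had it below both others in 69.2% and lowest of the 6 in 58.3% of 120 genes. Among 23 regulators of G2/M transcription these shares were 60.9% and 39.1%. Replicate 1 was the highest of the 6 in 4 members, beside 28.2% of all genes. Its median gap to the mean of the other siChe-1 arrays was -0.33 over the members and 0.03 over all genes. The spread followed: the median SD over replicates was 0.09 in the control group and 0.20 in the siChe-1 group for the members, and 0.12 and 0.17 for all genes. Between siChe-1 replicates 2 and 3 the median absolute gap of the members was 0.10, beside 0.13 for all genes. Neither a batch nor a scan date is given in the labels, and what sets replicate 1 apart was not tested.

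**Figure D4:**
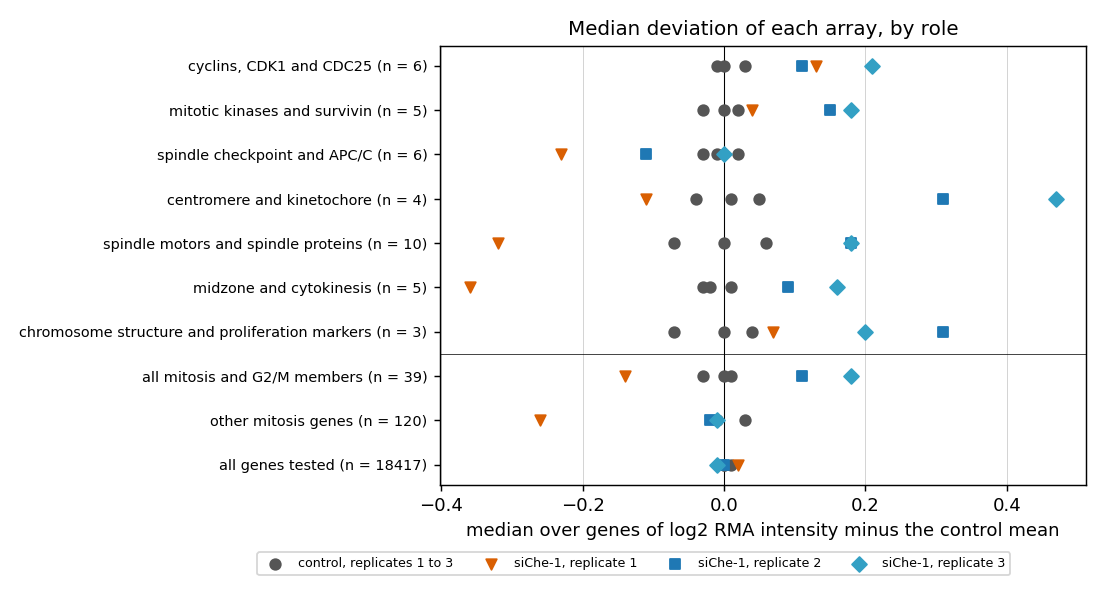
Median over the genes of each role of the log2 RMA intensity minus the control mean, 1 marker per array. Replicate 1 of siChe-1 lies at -0.32 for spindle proteins, -0.36 for midzone and cytokinesis genes and 0.13 for cyclins, CDK1 and CDC25. It lies at -0.26 for the 120 other mitosis genes, while all arrays lie between -0.01 and 0.02 for all genes tested.

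A second list of other mitosis genes, which holds no member, showed lower calls with all arrays. Of its 120 measured genes, 5 were called lower and none higher by limma, where 2.52% of all genes were called lower and 1.19% higher. The median difference was -0.091 and 83 of 120 were below 0 (65 after a repeated quantile normalization and 89 after centring on array medians). Over all 18417 genes the median was 0.005 and 9045 were below 0 (8552 and 10369 after the same 2 changes). MASTL, which encodes Greatwall, the kinase that blocks the phosphatase opposing CDK1, read 7.79, 7.83 and 7.88 in the control arrays and 6.62, 6.88 and 7.14 in the siChe-1 arrays, lower by 1.93-fold (log2 difference -0.95 ± 0.14, adjusted p = 0.00523). CDC25A, the CDC25 phosphatase that also acts at the start of S phase, read 7.75, 7.32 and 7.41 against 6.73, 6.59 and 6.63, lower by 1.79-fold (-0.84 ± 0.14, adjusted p = 0.00866). For both genes the groups were far apart relative to their spread. The other 3 were ZWILCH, a subunit of the kinetochore RZZ complex (-0.88, adjusted p = 0.0469), the centromere protein CENPN (-0.53, adjusted p = 0.0467) and the APC/C subunit ANAPC13 (-0.55, adjusted p = 0.0348). MASTL and CDC25A were the 2 genes still called when control replicate 1, 2 or 3 or siChe-1 replicate 3 was dropped. After a repeated quantile normalization the count was 3, and ZWILCH and CENPN did not pass.

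In the 5 arrays that leave out siChe-1 replicate 1, the same list had 8 genes called lower and 3 higher by limma, where 4.48% and 4.01% of all genes were called, and its median was -0.011 (0.029 after a repeated quantile normalization). PKMYT1, the kinase that holds CDK1 inactive, read 7.47, 7.49 and 7.52 in the control arrays and 7.43, 6.88 and 6.72 in the siChe-1 arrays. Replicate 1 was close to the control values, and the difference was -0.48 ± 0.17 with all arrays (adjusted p = 0.175) and -0.69 ± 0.11 without it (adjusted p = 0.00461). HASPIN, the kinase that marks centromeric histone H3, was lower too (-0.50, adjusted p = 0.0186), beside CDC25A (-0.88), MASTL (-0.82), ZWILCH (-0.64), ANAPC13 (-0.48) and CENPN (-0.48). SPC25, another subunit of the NDC80 complex, was higher (0.53, adjusted p = 0.0279), as was KIF18A, a kinesin that limits chromosome oscillation (0.48, adjusted p = 0.0289). With all arrays the differences were 0.45 for SPC25 (limma adjusted p = 0.0971) and 0.29 for KIF18A (0.429). For KIF18A the groups then overlapped, with replicate 1 the lowest array. In these 5 arrays NUF2 and SPC25 of the NDC80 complex were called higher, and NDC80 itself was not (0.20 ± 0.15, adjusted p = 0.493). The 24 measured kinetochore genes of this list had a median difference of -0.083 there, with 1 called higher and 1 lower. The count of 11 became 7, 6 or 9 on dropping control replicate 1, 2 or 3 as well. The counts over all genes were 1073, 1191 and 1338 there. In this list 2, 1 and 0 of the calls were higher without control replicate 1, 2 and 3. On dropping siChe-1 replicate 2 or 3 instead, the median difference of the list was -0.008 or -0.017. SPC25 was called in none of these fits except the one without control replicate 2, and KIF18A in none except the one without control replicate 1. Condensin and cohesin genes, 19 in all, had no called member in either fit, and 0 with all arrays at an unadjusted p under 0.05. Without replicate 1, 7 were higher and 1 lower at that threshold, beside 11.6% and 11.4% of all genes. Their smallest limma adjusted p there was 0.0525. In 11 both remaining siChe-1 arrays lay above all control arrays and in 3 below, beside 19.7% and 20.5% of all genes. In 17 of the 19, replicate 1 lay below both other siChe-1 arrays, beside 38.7% of all genes.

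Of 23 regulators of G2/M transcription, 1 was called lower and none higher with all arrays, where 2.52% and 1.19% of all genes were called. It was LIN9, a subunit of the MuvB core, which read 5.71, 5.71 and 5.54 in the control arrays and 4.73, 5.19 and 5.16 in the siChe-1 arrays (-0.63 ± 0.15, adjusted p = 0.0471). Its groups did not overlap and replicate 1 was lowest, and the call was lost without any 1 of the arrays except siChe-1 replicate 1 (adjusted p between 0.0540 and 0.185 in the other 5 cases). LIN9 was again lower when siChe-1 replicate 1 was left out (-0.48, adjusted p = 0.0276), and 3 genes were called higher, where 4.48% and 4.01% of all genes were called. They were TFDP2, a dimer partner of E2F factors (0.68, adjusted p = 0.00466), LIN52, another MuvB subunit (0.46, adjusted p = 0.0356), and RBL2, the pocket protein p130 (0.46, adjusted p = 0.0449). With all arrays the differences were 0.54 for TFDP2 (limma adjusted p = 0.0662), 0.42 for LIN52 (0.0864) and 0.23 for RBL2 (0.596). For RBL2 the groups then overlapped, with siChe-1 replicate 1 the lowest array. TFDP2 read 7.49, 7.53 and 7.57 in the control arrays and 7.80, 8.26 and 8.16 in the siChe-1 arrays, so that all its siChe-1 arrays lay above the control arrays. The count of 4 calls became 2 after centring on array medians, beside 1599 of all genes. It became 1, 3 or 2 on dropping control replicate 1, 2 or 3, beside 1073, 1191 and 1338 of all genes. On dropping siChe-1 replicate 2 or 3 instead, the median difference of the regulators was -0.065 or -0.015.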

How the data were processed

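The deposited table holds log2 RMA intensities of 33297 probe sets on 6 arrays, normalised by the authors. The submitters' processing notes name Affymetrix Expression Console and RMA. The version and settings are not given in the sources used here. RMA equalises the distributions of probe intensities over the arrays, so it can hide a shift shared by all transcripts, and it compresses differences of dim genes. Medians over all probe sets of the deposited table still ran from 4.95 to 5.00 in the control arrays and from 5.03 to 5.05 in the siChe-1 arrays. There were no detection calls, and 0 other value columns. The platform annotation paired 19460 probe sets with 1 symbol, 1754 with several and 12083 with none. The gene identifiers of 19429 were found in the RefSeq table (GRCh38.p14), which changed 0 symbols. The probe set with the highest mean stood for a gene with several (769 genes), leaving 18417 genes.

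The comparison, siChe-1 minus control, used lmFit and eBayes of limma 3.58.1 (R 4.3.3) with no covariate and no filter, with an adjusted p under 0.05 called. An error after ± is a moderated SE unless SD is stated. The fit was tested before use on simulated data with differences of 0.5, 1 and 2 on the log2 scale. It recovered 7.46%, 82.1% and 100% of them with all 6 arrays. Without siChe-1 replicate 1 it recovered 0%, 64.2% and 92.4%. Few genes were changed in the simulation and its spread came from all 6 arrays, so recovery in the data may differ. Differences of 0.5 or less, the size of most member differences, could go uncalled. A missing call does not show that a gene was unchanged. Precision is limited by the number of arrays. The members and lists, which were written from textbook knowledge, were chosen with earlier results of these data known, and support nothing by their choice. Values of every array are given for AATF, members called in either fit, the 8 largest differences, the 4 members with the highest mean, and CCNB1, CDK1, PLK1 and MKI67. CCNB2, UBE2C and DLGAP5 were added after their values were seen. In the other lists the rule named up to 8 called genes per fit. The list of other mitosis genes had 120 of 124 measured and the list of regulators 23 of 24. Motifs were searched on both strands of the whole promoter window. Alternatives were other normalizations, filters, moderation, array weights, thresholds, the replicate block and leaving out each array.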

Additional observations from a re-analysis of the deposited data

How the results depend on the processing

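All counts are genes called by limma at an adjusted p under 0.05 unless another threshold is named. AATF kept its direction and its call under every alternative. With all 6 arrays, the members' count of 0 became 7 with array weights and ranged from 0 to 5 when single arrays were left out, and their median difference ranged from -0.033 to 0.169. Without siChe-1 replicate 1, the members' count of 5 became 2 after centring on array medians, 2 with the replicate block and 0 at 0.01, and ranged from 0 to 4 when a further array was left out. For all genes with 6 arrays, 685 became 2865 with array weights, 1145 with the replicate block, 261 at 0.01 and 1299 at 0.1 (272 to 1565 without single arrays). The 1565 calls without siChe-1 replicate 1 became 514 at 0.01 and 2563 at 0.1 (382 to 1338 without a further array). For the other mitosis genes with 6 arrays, 5 became 3 after a repeated quantile normalization, 17 with array weights, 2 at 0.01 and 10 at 0.1 (2 to 11 without single arrays). Their 11 calls without siChe-1 replicate 1 became 20 without the dimmest 40% of genes, 17 with an intensity trend and robust prior, 3 at 0.01 and 20 at 0.1 (1 to 9 without a further array). For the regulators with 6 arrays, 1 became 3 after a repeated quantile normalization, 0 with the trend and robust prior, 7 with array weights, 2 with the replicate block, 0 at 0.01 and 3 at 0.1 (0 to 4 without single arrays). Their 4 calls without siChe-1 replicate 1 became 2 after centring, 2 with the replicate block and 1 at 0.01 (0 to 3 without a further array). No value that had been called changed its sign. The causes of these shifts were not tested, beyond the fewer arrays or genes and the other thresholds themselves.

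Replicate numbers were shared between the groups, and the labels do not say that they mark a shared culture. The deviations of same-numbered arrays correlated at 0.23, 0.0641 and -0.0445, and those of arrays with unlike numbers at -0.235 to 0.158. Deviations within a group of 3 arrays are tied to each other, so these values cannot decide whether arrays were paired. The main fit took no pairs, and the replicate block is given as an alternative. With 3 arrays per group, differences of the members had a median SE of 0.14 on the log2 scale.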
